A study of Mus musculus with 46 samples.

Results

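Oxidative phosphorylation takes place in the inner mitochondrial membrane. Complexes I, III and IV pass electrons from NADH to oxygen and pump protons, complex II feeds in electrons from succinate, and complex V, the ATP synthase, uses the returning protons to make ATP. Most subunits are encoded in the nucleus and imported, while a catalytic core of complexes I, III, IV and V is encoded by mitochondrial DNA, so a working chain draws on 2 genomes. Kidney tubules and neurons are known for a heavy use of this pathway. The genes described here were the protein-coding genes whose symbols begin with the names of these subunits (Nduf followed by a, b, c, s or v, Sdha to Sdhd, Uqcr, Cox4 to Cox8, Atp5, mt-Nd, mt-Co, mt-Cytb and mt-Atp). The pattern reads names and no measured value, but it was chosen with earlier results of these data known. It took in 105 of 53465 genes, 92 nuclear and 13 mitochondrially encoded. By complex there were 43 genes for complex I, 4 for II, 9 for III, 23 for IV and 17 for V. The other 9 are not subunits but share the names: the 8 Ndufaf assembly factors of complex I and Atp5s, an ATP synthase-associated factor. The pattern also matched 7 pseudogenes, which were left out, and it does not take in the electron carriers Cyc1 and Cycs.

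The RNA came from 3 tissues (liver, kidney and cerebellum), taken at day 23 after birth from mice on a C57BL/6 background. The p150-negative animals (labelled P195A/p150-) carried the P195A change in Adar together with an allele that makes no p150, and the p150-positive animals (labelled P195A/p150+) carried the same P195A change together with an allele that makes p150. ADAR1, the product of Adar, converts adenosines in double-stranded RNA into inosine, and p150 is its interferon-inducible isoform, whose Z-nucleic acid binding domain holds the P195A change. All animals thus had P195A, and no animal with unchanged Adar on both alleles was analysed here. There were 8 animals of each genotype, and the labels give no sex.

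The libraries used were 7 p150-negative against 7 p150-positive livers, 5 against 7 kidneys and 8 against 7 cerebella, 41 of 46 in all, with total counts from 0.27 to 6.24 M (M, 1000000 counts; median 2.95 M). The 5 libraries left out lacked the RNA of the labelled tissue: the column labelled liver of p150-negative animal 2 held 9.12 CPM (counts per 1000000 counts of the library) of the liver identity genes Alb, Apoa1, Serpina1c and Cps1 and 8281 CPM of the kidney identity genes, 3 columns labelled kidney held at most 6.42 CPM of the kidney genes Umod, Slc34a1, Kap and Aqp2, and a p150-positive column labelled cerebellum held 17.3 CPM of Pcp2, Gabra6, Cbln3 and Neurod1. In the libraries used, the labelled tissue's genes summed to 34639 to 66690.4 CPM in liver, 9057 to 20240.5 CPM in kidney and 1250.5 to 3192 CPM in cerebellum. Adar itself averaged 7.36 ± 4.49 CPM in p150-negative and 11.8 ± 5.14 CPM in p150-positive livers (SD, n = 7 each, adjusted p = 0.318), 15.3 ± 9.52 CPM in p150-negative and 19.7 ± 11.5 CPM in p150-positive kidneys (n = 5 and 7, adjusted p = 0.973), and 34.2 ± 22.2 CPM in p150-negative and 23.9 ± 7.65 CPM in p150-positive cerebella (n = 8 and 7, adjusted p = 0.723), and a count per gene does not separate p150 from the other isoform. Interferon-stimulated genes served as the check of genotype: 13 of 15 tested were called higher in p150-negative liver, 9 of 13 in kidney and 13 of 14 in cerebellum. Of all genes tested, 6.94%, 0.385% and 0.723% were called higher in those tissues. The cerebellum of p150-negative animal 2 stood apart, with 75.5 CPM summed over these genes against 1441 to 2677 CPM in the other 7 p150-negative cerebella and 85.6 to 193 CPM in the p150-positive ones. The kidney library of p150-negative animal 3 was the shallowest, at 0.27 M counts. Values without these 2 libraries are given beside the main counts and medians and for several single members.

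Many nuclear respiratory genes are known targets of the transcription factors NRF1, the ETS family member GABP (NRF2) and YY1. The windows below show where the letters bound by these factors lie in 4 members, the kidney's lowest p-values among members with a listed promoter (Uqcrfs1, the Rieske iron-sulphur protein of complex III, and Ndufa9, of complex I), Sdhb, the iron-sulphur subunit of complex II, and Ndufaf1, an assembly factor of complex I that was chosen after its values were seen. Each runs from 250 bases before to 50 bases after the gene's start, 5′ to 3′ on the gene's strand, from RefSeq on GRCm38.p6: Uqcrfs1 at chr13:30545267-30545566 (minus strand), Ndufa9 at chr6:126849095-126849394 (minus), Ndufaf1 at chr2:119662785-119663084 (minus) and Sdhb at chr4:140961021-140961320 (plus). Capitals mark a match to CATGCGC (NRF1), CCGGAAG (ETS) or AAGATGG (YY1), searched on both strands.
Uqcrfs1: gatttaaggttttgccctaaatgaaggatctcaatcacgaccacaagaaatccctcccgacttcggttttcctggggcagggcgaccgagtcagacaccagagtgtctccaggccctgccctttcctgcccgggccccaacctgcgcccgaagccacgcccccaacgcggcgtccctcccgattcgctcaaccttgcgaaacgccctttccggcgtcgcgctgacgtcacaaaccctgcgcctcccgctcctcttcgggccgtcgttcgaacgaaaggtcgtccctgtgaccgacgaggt
Ndufa9: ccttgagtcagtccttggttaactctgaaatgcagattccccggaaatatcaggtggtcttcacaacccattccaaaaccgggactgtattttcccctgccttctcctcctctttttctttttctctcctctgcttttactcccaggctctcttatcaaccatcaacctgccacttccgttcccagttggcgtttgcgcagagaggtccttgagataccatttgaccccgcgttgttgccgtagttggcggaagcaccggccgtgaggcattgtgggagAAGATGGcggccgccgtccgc
Ndufaf1: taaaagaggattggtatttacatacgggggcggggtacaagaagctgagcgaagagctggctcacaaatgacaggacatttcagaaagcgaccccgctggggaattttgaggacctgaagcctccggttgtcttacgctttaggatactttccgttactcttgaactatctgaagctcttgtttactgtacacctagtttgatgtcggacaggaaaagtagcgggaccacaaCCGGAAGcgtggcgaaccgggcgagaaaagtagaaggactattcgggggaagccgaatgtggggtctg
Sdhb: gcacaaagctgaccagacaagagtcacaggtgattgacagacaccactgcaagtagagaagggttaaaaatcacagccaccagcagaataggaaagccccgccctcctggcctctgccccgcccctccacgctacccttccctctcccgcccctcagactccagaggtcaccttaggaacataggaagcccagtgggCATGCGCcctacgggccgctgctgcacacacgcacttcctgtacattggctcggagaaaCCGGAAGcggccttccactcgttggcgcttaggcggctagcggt

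The Uqcrfs1 window held none of the 3 motifs, Ndufa9 held the YY1 letters starting 29 bases after the start, Ndufaf1 the ETS letters starting 18 bases before it, and Sdhb the NRF1 letters starting 53 bases before and the ETS letters 6 bases after it. The ETS motif ends and the YY1 motif begins with AAG, so a run that holds both counts for each. Of the 92 nuclear members 74 matched a listed promoter, and the first listed start was used. The NRF1 letters stood in 15 of the 74 (20.3%), against 4.04% of all 27025 promoters of that length, the ETS letters in 17 (23.0% against 9.12%) and the YY1 letters in 10 (13.5% against 6.48%). At least 1 of the 3 stood in 34 members (45.9%), against 17.9% of all promoters. These are matches of letters, not binding sites, and their relation to the genotype was not tested.

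Levels between genes are compared per kilobase of exon, with all annotated exons of a gene joined. This length can be well above that of a gene's transcripts. Atp5b has 4237 bases of joined exons, while its longest annotated transcript has 1916. In every tissue the mitochondrially encoded mt-Cytb (cytochrome b of complex III), mt-Nd1 (complex I) and mt-Co1 (the catalytic subunit of complex IV) were the 3 highest members in both genotypes among those with usable counts: 5 mitochondrially encoded genes are near 0 in the table, and mt-Co1 shares part of its sequence with a pseudogene, as described further on. mt-Cytb reached 6234 CPM per kilobase in p150-negative and 6608 in p150-positive kidneys, 4077 and 4893 in p150-negative and p150-positive cerebella, and 3304 and 4281 in p150-negative and p150-positive livers. Per kilobase of joined exons, the highest nuclear members were small subunits of complex IV: Cox8a in kidney (1863 CPM per kilobase in p150-negative, 2158 in p150-positive animals) and cerebellum (1444 and 1403), and Cox6b1 in liver (666 and 874). Since this length lowers the level of genes such as Atp5b, another length can give another order. Summed over all 92 nuclear members, kidney carried 47226 ± 13737 CPM in p150-negative (SD, n = 5) and 54225 ± 8553.3 CPM in p150-positive animals (n = 7). The corresponding sums were 22349 ± 3213 CPM in p150-negative and 27374 ± 6588 CPM in p150-positive livers (n = 7 each), and 30828 ± 5323 CPM in p150-negative and 30652 ± 2609 CPM in p150-positive cerebella (n = 8 and 7). Kidney thus had the highest sum of nuclear subunit transcripts in both genotypes.

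Library by library, the nuclear sum in kidney was 37548, 70476, 39398, 48987 and 39723 CPM in p150-negative animals 1, 3, 8, 9 and 16, against 50262, 73229, 49252, 50122, 54364, 50200.4 and 52147 CPM in p150-positive animals 4, 5, 6, 7, 10, 13 and 15. The 4 deeper p150-negative kidneys all lay below the lowest p150-positive kidney, and the shallow library of animal 3 lay above 6 of 7. In liver the p150-negative sums ran from 17964 to 27379 CPM (median 22096), against 22684 to 40657 CPM (median 23987) in p150-positive livers, where animal 13 was the highest. In cerebellum they ran from 24810.3 to 40234 CPM (median 30018) in p150-negative and from 27764 to 35008 CPM (median 29955) in p150-positive animals, and the p150-positive range lay within the p150-negative one.

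**Figure D1:**
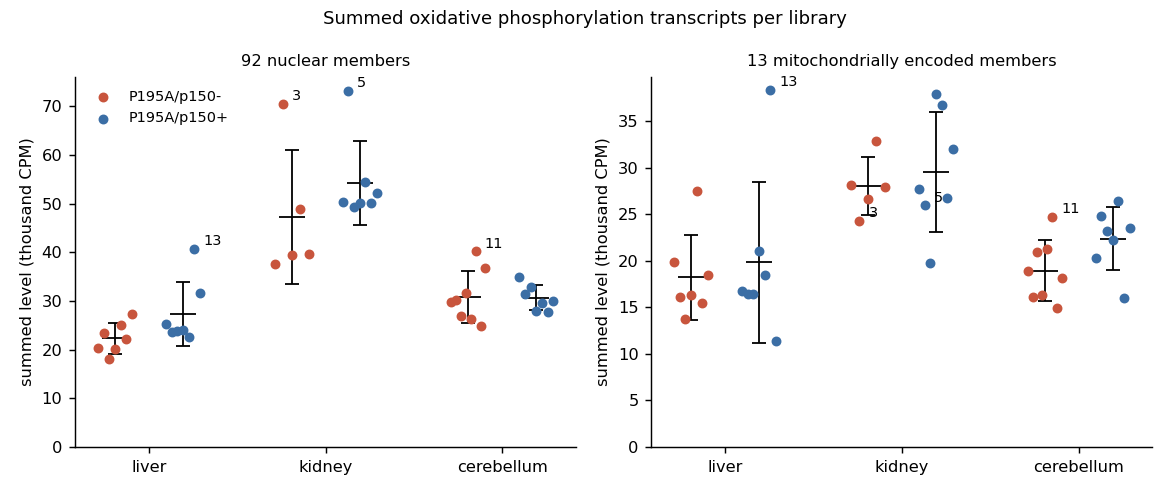
Summed level (in units of 1000 CPM) of the 92 nuclear members (left) and the 13 mitochondrially encoded members (right) for each library, by tissue, with P195A/p150- (red) left of P195A/p150+ (blue). Points are libraries, black bars mean and SD, and numbers mark 4 animals named in the text. On the left the kidney libraries of p150-negative animal 3 (70476 CPM) and p150-positive animal 5 (73229 CPM) stand apart from the rest, and on the right the liver of p150-positive animal 13 (38379.8 CPM).

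In kidney, transcripts of nearly all subunits stood lower in p150-negative animals, mostly by a small amount, and none passed the test for a single gene. The median log2 fold change (p150-negative over p150-positive) was -0.34 over the 96 members that passed the low-count filter, with 93 below 0. Over all 11957 genes tested it was -0.066, with 56.3% below 0. By edgeR's quasi-likelihood test with Benjamini-Hochberg adjustment over all genes, 0 of 96 members were called at an adjusted p under 0.05, against 0.694% of all genes (0.385% higher and 0.309% lower). At an unadjusted p under 0.05 there were 24 members, all lower, against 979 of 11957 genes, and without the shallow library of p150-negative animal 3 there were 71, all lower, against 1588 of 12283 genes. DESeq2 on the same libraries called 2 members lower, Uqcrfs1 and Ndufa9. Its share of calls over all genes is not given here, so these 2 are not set against a background. All 74 structural nuclear subunits lay below 0 (median -0.36), and so did the 8 mitochondrially encoded members tested (median -0.28), of which 7 did without animal 3 (median -0.21). In bulk tissue, fewer cells of a type and less RNA per cell cannot be told apart.

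By complex in kidney, complex III had the lowest median, -0.445 over its 8 nuclear subunits. Complex IV stood at -0.372 over 11, complex I at -0.365 over 36, complex II at -0.33 over 4 and complex V at -0.30 over 15. Each of these 74 values was below 0, and their range was -0.79 to -0.023. The 9 assembly and associated factors had a median of -0.22, with 8 below 0. Without animal 3 all 74 subunits were again below 0 but the order changed: the medians were -0.649 for complex IV, -0.531 for III, -0.53 for I, -0.47 for V, -0.317 for II and -0.368 for the factors.

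Uqcrfs1, which carries the iron-sulphur cluster that takes electrons from ubiquinol, had the smallest p of all members in kidney. It measured 677, 780.1, 726, 949 and 661 CPM in p150-negative animals 1, 3, 8, 9 and 16, against 1053, 1230.2, 967, 1026, 1095, 1127 and 1024 CPM in p150-positive animals 4, 5, 6, 7, 10, 13 and 15. The groups did not overlap. The log2 fold change was -0.62 ± 0.15 (SE) with an adjusted p of 0.0791, and without the shallow library of animal 3 it was -0.59 with 0.0654. DESeq2 on all these libraries gave -0.56 and 0.00564. Leaving out p150-negative animal 9, the highest of its group, gave -0.74 and an adjusted p of 0.0422. Taking out the highest value of the lower group widens the gap by itself, so that fit adds nothing to the test. Uqcrfs1 also did not overlap in liver, at 331 to 479 CPM (median 449) in p150-negative and 500.4 to 667 CPM (median 539.9) in p150-positive animals, with a log2 fold change of -0.28 ± 0.17 and an adjusted p of 0.361. In cerebellum it ran from 313 to 483 CPM (median 355) in p150-negative and from 385 to 477 CPM (median 426) in p150-positive animals (-0.21 ± 0.11, adjusted p = 0.553), and the ranges overlapped.

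Ndufa9, an accessory subunit of complex I near its ubiquinone site, measured 433, 371, 458, 539.5 and 482 CPM in the p150-negative kidneys in the same animal order, against 625.1, 641, 611, 564, 584, 673 and 581 CPM in the p150-positive kidneys. Here too the groups did not overlap, with a log2 fold change of -0.52 ± 0.15 and an adjusted p of 0.173 (DESeq2 -0.46, adjusted p = 0.0219). Without animal 3 the edgeR value was -0.43 with an adjusted p of 0.114. The library kit does not mark strand, so reads of a gene and of one on the opposite strand cannot be told apart where they overlap. Over whole genes, introns included, such a gene overlaps Ndufa9 (1700018A23Rik, by 2801 bases), Ndufs1 (Ino80dos, by 14695 bases) and Cox5a (Gm26631, by 1140 bases), and other members too. How much of each overlap lies in exons is not given here, and the joined exons of Ndufs1 hold 8086 bases in all. In liver Ndufa9 averaged 225 ± 37.4 CPM in p150-negative and 252 ± 38.6 CPM in p150-positive animals, and in cerebellum 327 ± 46.1 and 349 ± 41 CPM, differences within the spread between animals.

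Among the catalytic core subunits in kidney, Sdhb averaged 985 ± 155 CPM in p150-negative and 1221 ± 87.1 CPM in p150-positive animals (log2 fold change -0.43, adjusted p = 0.279). Uqcrc1, a core protein of complex III, averaged 657 ± 171 CPM in p150-negative and 868 ± 103 CPM in p150-positive animals (-0.51, adjusted p = 0.350). Ndufs1, the largest iron-sulphur subunit of complex I, averaged 400.3 ± 153 CPM in p150-negative and 547 ± 96.5 CPM in p150-positive animals (-0.52, adjusted p = 0.648), with its lowest value, 159.7 CPM, in the shallow library of animal 3, and a log2 fold change of -0.32 without that library. Smaller differences were measured for Ndufv1, which oxidises NADH (597 ± 85.7 CPM in p150-negative and 602 ± 111 CPM in p150-positive animals), and for Sdha, the flavoprotein of complex II (1451 ± 322 and 1566 ± 416 CPM), whose log2 fold change was -0.20 with and -0.07 without animal 3. The catalytic pair of ATP synthase behaved likewise: Atp5a1, the alpha subunit, averaged 2907 ± 536 CPM in p150-negative and 3199.9 ± 375.01 CPM in p150-positive animals (-0.25), and Atp5b, the beta subunit, 4678 ± 782 and 5252 ± 706 CPM (-0.28). The CPM here are on library totals and the fold changes on TMM-scaled libraries, so that Ndufv1, nearly equal in CPM, has a log2 fold change of -0.13.

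The membrane anchor Sdhc of complex II, like Ndufaf1 chosen in kidney after its values were seen, measured 219.8, 223, 227, 276 and 183 CPM in p150-negative animals 1, 3, 8, 9 and 16, against 340.2, 279, 350.3, 317, 315, 263 and 255 CPM in the p150-positive animals in the order above. All 5 p150-negative values lay below the p150-positive median, with some overlap, at a log2 fold change of -0.53 ± 0.17 and an adjusted p of 0.253. Ndufaf1, which helps build complex I, measured 42.6, 0, 62.3, 53 and 47.5 CPM in p150-negative kidneys, against 67.6, 83.1, 75.7, 66.1, 83.4, 88.5 and 62.8 CPM in p150-positive kidneys. Its ranges did not overlap, the 0 came from animal 3, and the log2 fold change was -0.87 ± 0.41 with an adjusted p of 0.601. Without animal 3 Ndufaf1 had -0.63 ± 0.18 with an adjusted p of 0.102, and Sdhc -0.49 ± 0.16 with 0.159.

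**Figure D2:**
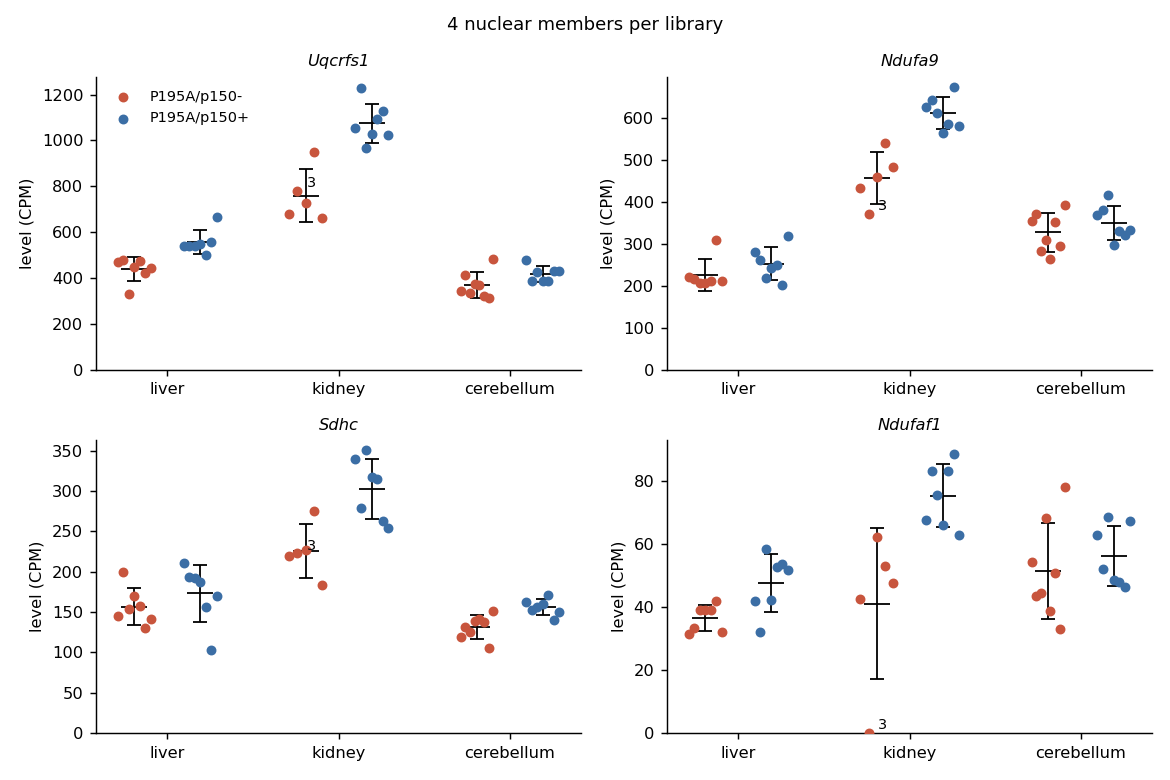
CPM of Uqcrfs1, Ndufa9, Sdhc and Ndufaf1 in each library by tissue, with P195A/p150- (red) left of P195A/p150+ (blue); points are libraries, black bars mean and SD, and 3 marks the shallow kidney library. In kidney the 5 red points of Uqcrfs1 (661 to 949 CPM) lie below all 7 blue points (967 to 1230.2 CPM), and no such gap is seen in cerebellum.

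The shallow kidney library changed the size of the kidney difference. Without p150-negative animal 3, the median over nuclear members was -0.52 in place of -0.35, 94 of 96 members lay below 0, and 0 were called, against 1.72% of all genes in that fit, whose median was 0.016. Ndufs4, an accessory subunit of complex I named after this value was seen, had the log2 fold change -0.62 with an adjusted p of 0.0654 there. Without p150-positive animal 5 the nuclear median was -0.24. Under library totals in place of TMM it was -0.20, with 87 of 96 members below 0.

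The 2 kidney libraries with the highest sums were not high in all subunits alike. They were looked at by exon length, together with the libraries with the highest nuclear sum in the other 4 groups, all chosen after the sums were seen. Exon length here joins all annotated exons of a gene and is not the length of its mRNA. Atp5j2, with 3306 bases of joined exons, has a longest annotated transcript of 2101 bases. Short and long are meant by joined exons below. For each of the 74 structural nuclear subunits the log2 ratio was taken of CPM + 1 in the library over that of the median of the other libraries of its tissue and genotype. In p150-negative kidney animal 3 it had a median of 1.17 in the 25 shortest genes (419 to 1231 bases), 1.19 in the middle 24 and 0.39 in the 25 longest (2181 to 8086 bases). In p150-positive kidney animal 5 the medians were 0.95, 0.79 and 0.17 from shortest to longest, in p150-positive liver animal 13 they were 1.53, 0.98 and 0.32, and in p150-negative cerebellum animal 11 they were 0.80, 0.71 and 0.29. In p150-negative liver animal 16 they were 0.74, 0.55 and 0.225, and in p150-positive cerebellum animal 4 they were 0.306, 0.278 and 0.149. The genes with the longest joined exons thus stood least above the other libraries in each of these 6, and the same was not looked at by mRNA length. Cytosolic ribosomal protein transcripts summed to 22510.1 CPM in kidney animal 3, against 9522 to 10901 CPM in the other p150-negative kidneys, and to 18569.9 CPM in kidney animal 5, against 7461 to 10766 CPM in the other p150-positive kidneys. In liver they summed to 9002 CPM in p150-negative animal 16, against 5173 to 8546 CPM in its group, and to 19062 CPM in p150-positive animal 13, against 4639.8 to 9688 CPM. In cerebellum they summed to 11577 CPM in p150-negative animal 11, against 4071 to 10788 CPM, and to 6498 CPM in p150-positive animal 4, against 4610.3 to 6002 CPM. Each of the 6 libraries was the highest of its group, those of kidney animals 3 and 5 and of liver animal 13 by the widest gaps. The genotype log2 fold changes themselves had medians of -0.35, -0.38 and -0.32 in the short, middle and long genes in kidney, -0.34, -0.26 and -0.21 in liver, and 0.029, 0.092 and -0.042 in cerebellum. What part these libraries have in the genotype difference beyond the values given without them was not tested.

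**Figure D3:**
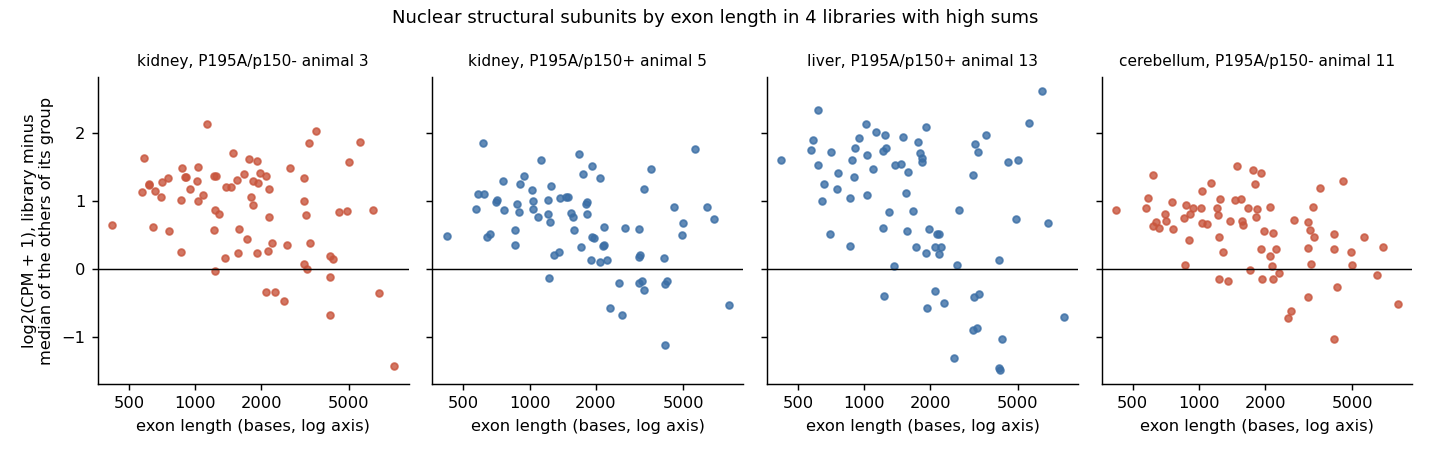
Each point is 1 of 74 nuclear structural subunits, with the length in bases of its joined annotated exons (log axis) against the log2 ratio of its level (CPM + 1) in the named library to the median of the other libraries of that tissue and genotype. P195A/p150- libraries are red and P195A/p150+ libraries blue. Genes with short joined exons lie mostly above 0 in all 4 libraries, and those with long joined exons spread to both sides of it.

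In liver, subunit transcripts also stood slightly lower in p150-negative animals, and again no member was called. The median log2 fold change was -0.28 over the 92 members tested, with 85 below 0, against -0.036 and 53.4% over all 9843 genes. By edgeR 0 of 92 members were called, against 11.7% of all genes (6.94% higher and 4.76% lower). DESeq2 also called 0, and 7 members had an unadjusted p under 0.05, 6 of them lower, against 2292 of 9843 genes. The medians were -0.34 for complex IV (11 of 11 nuclear subunits below 0), -0.315 for complex I (36 of 36), -0.245 for complex III (8 of 8), -0.24 for complex V (15 of 15) and -0.13 for complex II (3 of 4). The mitochondrially encoded members had a median of -0.11, with 5 of 8 below 0. Without p150-positive animal 13 the nuclear median was -0.06 and the mitochondrial median turned to 0.28.

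The 3 members with the smallest p in liver went in both directions. Cox5a, a nuclear subunit of complex IV, ran from 53.2 to 93.7 CPM (median 74.7) in p150-negative and from 75.5 to 128 CPM (median 105) in p150-positive livers. Its ranges overlapped, all 7 p150-negative values lay below the p150-positive median, and the log2 fold change was -0.43 ± 0.18 with an adjusted p of 0.134. Ndufb10, an accessory subunit in the membrane arm of complex I, ran from 118 to 214 CPM (median 161) in p150-negative and from 178 to 323 CPM (median 227) in p150-positive livers (-0.51 ± 0.21, adjusted p = 0.141). Atp5s ran from 9.39 to 25.8 CPM (median 20.3) in p150-negative and from 10.0 to 17.0 CPM (median 12.5) in p150-positive livers, higher in 6 of 7 p150-negative animals than the p150-positive median (0.57 ± 0.22, adjusted p = 0.117). The core subunits had log2 fold changes from -0.29 (Sdha) to -0.06 (Ndufv1): Atp5b averaged 2213 ± 356 CPM in p150-negative and 2487 ± 556 CPM in p150-positive livers, and Sdha 619 ± 129 and 793 ± 261 CPM.

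In cerebellum, nuclear subunits lay evenly about 0, while the mitochondrially encoded ones stood lower in p150-negative animals in 7 of 8 genes. The median log2 fold change was -0.011 over 87 nuclear members, 46 of them below 0, and -0.29 over the 8 mitochondrially encoded members. Over all 13146 genes it was 0.004, with 49.6% below 0. By edgeR 0 of 95 members were called, against 0.997% of all genes (0.723% higher and 0.274% lower), and DESeq2 called 0. There were 7 members at an unadjusted p under 0.05, all lower and 4 of them mitochondrially encoded, against 1258 of 13146 genes. By complex the nuclear medians were 0.037 for I (15 of 36 below 0), -0.23 for II (4 of 4), -0.083 for III (6 of 8), 0.097 for IV (3 of 11) and 0.035 for V (6 of 15), and the 9 assembly and associated factors all lay below 0 (median -0.19). Under library totals the nuclear median was 0.033 in place of -0.011, and without p150-negative animal 2 it was -0.001, with the mitochondrial median at -0.26. Without that animal 0 of 95 members were called, against 1.06% of all genes, and 4 had an unadjusted p under 0.05, none of them mitochondrially encoded. Ndufs1, Sdhc and mt-Cytb then had log2 fold changes of -0.33, -0.29 and -0.27.

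Ndufs1 had the smallest p in cerebellum. It ran from 255 to 426 CPM (median 357) in p150-negative and from 398 to 465.9 CPM (median 424) in p150-positive animals, with 7 of 8 p150-negative values below the p150-positive median (-0.31 ± 0.11, adjusted p = 0.330). Sdhc ran from 105 to 151 CPM (median 134) in p150-negative and from 140.1 to 171 CPM (median 156) in p150-positive animals, with 8 of 8 below that median (-0.29 ± 0.11, adjusted p = 0.354). Both ranges overlapped. Sdha averaged 808 ± 254 CPM in p150-negative and 1002 ± 125 CPM in p150-positive cerebella (-0.35, adjusted p = 0.567), whereas Sdhb averaged 467 ± 69.9 and 467 ± 54.5 CPM. Ndufv1, Uqcrc1 and Atp5a1 had log2 fold changes of -0.01, -0.05 and -0.05, and Atp5b of -0.18.

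**Figure D4:**
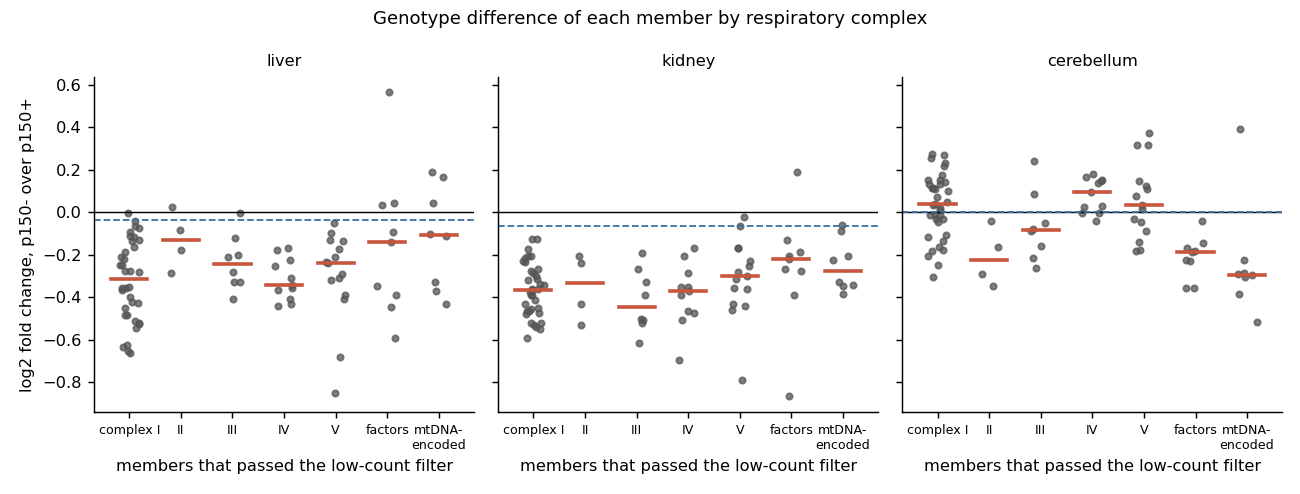
Log2 fold change (P195A/p150- over P195A/p150+) of each member that passed the low-count filter, in liver, kidney and cerebellum, by complex for nuclear structural subunits, then assembly and associated factors, then mitochondrially encoded members; tissue-specific isoforms are not drawn. Points are genes, red bars the median of the set and the dashed blue line the median of all genes tested. In kidney every structural point lies below 0, while in cerebellum the points of complexes I, IV and V lie on both sides of it.

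The mitochondrially encoded subunits are transcribed as long RNAs from both strands of the circular genome, and mt-Nd6 is the subunit gene on the opposite strand to the others. Of the 13 members, 5 were near 0 in the table: over all 46 libraries mt-Co2 had 16 counts, mt-Co3 9, mt-Atp6 5, and mt-Atp8 and mt-Nd4l 0. Nuclear pseudogenes carry near-identical copies of 4 of these transcripts, namely Gm28661 for mt-Co2 (681 bases at 100% identity, 1675 counts), Gm28437 for mt-Co3 (783 bases at 100%, 2369 counts), Gm10925 for mt-Atp6 (678 bases at 100%, 962 counts) and Gm10222 for mt-Nd4l (294 bases at 100%, 46 counts). Reads that match more than 1 place are commonly dropped in counting, and whether that lowered these genes was not tested, so their counts are not read as levels. mt-Atp8 had no copy at 98% identity over 100 bases or more. mt-Nd3, with a copy in Gm28438 (345 bases at 99.7%), kept 7312 counts, and mt-Nd4 and mt-Co1 are covered for 63.6% and 31.3%, so these 3 are uncertain as levels. mt-Cytb, mt-Nd1, mt-Nd2, mt-Nd5 and mt-Nd6 had no such copy.

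In cerebellum mt-Cytb ran from 3399 to 7141 CPM (median 4363) in p150-negative and from 3999 to 6462 CPM (median 5779) in p150-positive animals, with 7 of 8 p150-negative values below the p150-positive median (-0.31 ± 0.14, adjusted p = 0.517). mt-Nd2 ran from 777 to 2372 CPM (median 1343) in p150-negative and from 1409 to 2142 CPM (median 1784) in p150-positive animals (-0.39, adjusted p = 0.484), and mt-Nd5 averaged 1973 ± 216 CPM in p150-negative and 2240.4 ± 258 CPM in p150-positive animals (-0.22, adjusted p = 0.508). mt-Nd1, mt-Nd3, mt-Nd4 and mt-Co1 had log2 fold changes of -0.29, -0.52, -0.30 and -0.28. The exception was mt-Nd6, at 268, 304, 243, 343, 212, 687, 189.9 and 637 CPM in p150-negative animals 1, 2, 3, 8, 9, 11, 14 and 16, against 207 to 320.2 CPM (median 268) in p150-positive animals (0.39 ± 0.24, adjusted p = 0.660). The 2 high values came from animals 11 and 16, the same animals that had the highest sums of nuclear members in cerebellum. Since strand was not recorded, reads from RNA of the opposite strand at mt-Nd6 cannot be told apart.

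In kidney the 8 values ran from -0.39 (mt-Nd2) to -0.06 (mt-Co1), and without animal 3 from -0.61 (mt-Nd6) to 0.17 (mt-Co1). In liver they ran from -0.43 (mt-Nd4) to 0.19 (mt-Nd5). mt-Cytb averaged 7132 ± 761 CPM in p150-negative and 7560.1 ± 1481 CPM in p150-positive kidneys, and 3779.6 ± 947 and 4898 ± 2226 CPM in p150-negative and p150-positive livers. In kidney mt-Co1 measured 8602, 2492, 8055, 9629 and 8646 CPM in p150-negative animals 1, 3, 8, 9 and 16, against 7595, 2652, 4753, 10217, 9725, 7285 and 9293 CPM in the p150-positive animals. The lowest values were those of p150-negative animal 3 and p150-positive animal 5, the libraries with the highest nuclear sums of their genotypes.

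The ratio of summed nuclear to summed mitochondrially encoded counts was taken in each library. Since 5 mitochondrially encoded genes are near 0 in the table, it is a ratio of the counts that were kept and does not give the balance of the 2 genomes. In cerebellum it averaged 1.65 ± 0.291 in p150-negative (SD, n = 8) and 1.40 ± 0.242 in p150-positive animals (n = 7), with 1 of 8 p150-negative values below the p150-positive median. In kidney it averaged 1.72 ± 0.659 in p150-negative and 1.92 ± 0.546 in p150-positive animals, and in liver 1.26 ± 0.222 and 1.51 ± 0.583. In each tissue the ranges overlapped.

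**Figure D5:**
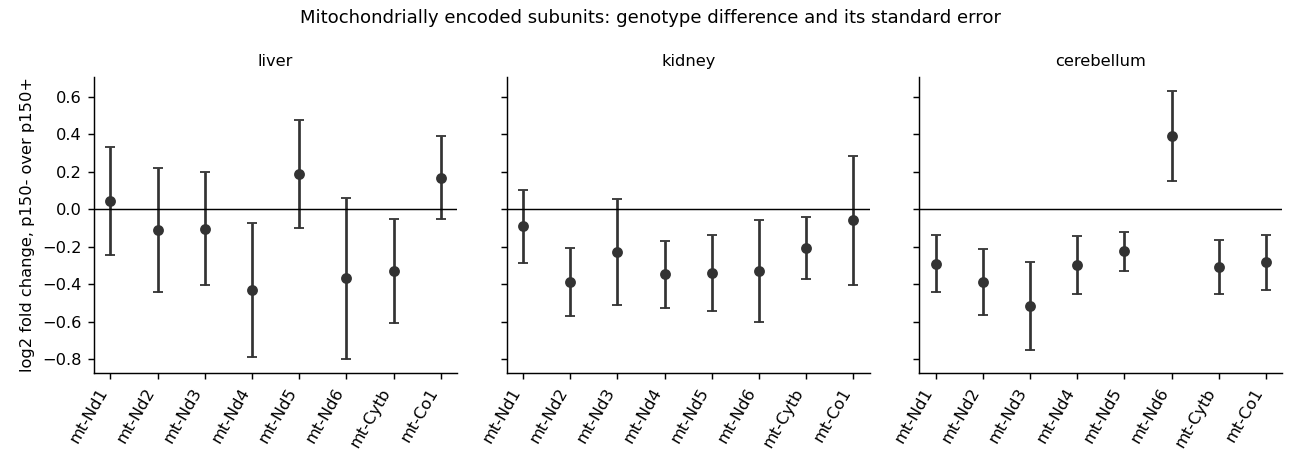
Log2 fold change (P195A/p150- over P195A/p150+) with its standard error for the 8 mitochondrially encoded members that passed the low-count filter, in liver, kidney and cerebellum. In cerebellum 7 genes lie between -0.52 and -0.22 and mt-Nd6 at 0.39, and in liver the bars are wide and most cross 0.

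Several subunits of complex IV exist as alternative isoforms used by different tissues. The ubiquitous forms were the main ones in all 3 tissues. Cox4i1 stood at 1022 ± 506 CPM in p150-negative and 1166 ± 336 CPM in p150-positive kidneys, against 1.21 ± 0.897 and 1.40 ± 1.44 CPM for its lung and hypoxia form Cox4i2. Cox6b1 averaged 1120.5 ± 579 CPM in p150-negative and 1275 ± 423 CPM in p150-positive kidneys, and Cox6b2, known from testis, 28.8 ± 26.0 and 20.8 ± 10.7 CPM. Cox7a2 averaged 836 ± 394 CPM in p150-negative and 1037 ± 508 CPM in p150-positive kidneys, Cox7a1, the heart and muscle form, 35.8 ± 27.1 and 49.9 ± 31.9 CPM, and the supercomplex factor Cox7a2l 146 ± 76.5 and 112 ± 14.2 CPM. Cox7b averaged 868 ± 475 CPM in p150-negative and 892 ± 317 CPM in p150-positive kidneys, with Cox7b2 at 0. Ndufa4, now counted to complex IV, averaged 1138 ± 549.5 CPM in p150-negative and 1333 ± 459.6 CPM in p150-positive kidneys, and Ndufa4l2 3.84 ± 2.4 and 6.28 ± 3.37 CPM. Cox8c had at most 0.0572 CPM on average in any group. None of the isoforms tested was called in any tissue. Without animal 3 the log2 fold change in kidney was -0.06 in place of 0.21 for Cox7a2l and -0.31 in place of 0.16 for Cox6b2. Cox7a1 had its highest p150-negative kidney value, 78.0 CPM from 21 counts, in animal 3. Without that library its log2 fold change by edgeR was -1.05 ± 0.45 with an adjusted p of 0.323.

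The 3 genes for subunit c of ATP synthase make the same mature protein. Atp5g3 led, at 1154 ± 334 CPM in p150-negative and 1339.7 ± 264 CPM in p150-positive kidneys (-0.36, adjusted p = 0.648), then Atp5g1 at 519 ± 169 and 635 ± 101 CPM (-0.43, adjusted p = 0.526) and Atp5g2 at 37.2 ± 21.0 and 35.8 ± 22.8 CPM (-0.17). Per kilobase of joined exons the order in kidney was the same, with 529 CPM per kilobase in p150-negative and 614 in p150-positive animals for Atp5g3, 106 and 129 for Atp5g1, and 22.2 and 21.4 for Atp5g2. Without animal 3 the log2 fold changes were -0.48 for Atp5g3, -0.56 for Atp5g1 and -0.41 for Atp5g2.

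Cox8b, the muscle and brown fat form of Cox8, had the largest fold difference of any member tested in kidney but rested on few libraries. It passed the low-count filter through p150-positive libraries alone, so its rank and the size of its difference are tied to that filter. It measured 2.86, 0, 1.40, 0 and 0.820 CPM in p150-negative animals 1, 3, 8, 9 and 16, against 0, 217, 56.4, 0, 5.13, 9.21 and 10.5 CPM in p150-positive animals 4, 5, 6, 7, 10, 13 and 15. The ranges overlapped at 0, and the log2 fold change was -5.03 ± 1.54 with an adjusted p of 0.214. The brown fat gene Ucp1 measured 0.286, 0, 0, 0 and 5.33 CPM in the same p150-negative kidneys, against 0.673, 52.4, 148, 0, 4.28, 45.2 and 15.8 CPM in the p150-positive ones (-4.91, adjusted p = 0.179). The 8 brown adipocyte markers, 2 of which are Cox8b and Cox7a1 themselves, summed to 36.4 to 78.0 CPM in p150-negative and 28.6 to 525 CPM in p150-positive kidneys, highest in animals 5 and 6. The part of brown fat in the Cox8b difference was not tested.

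Cox6a2, the heart and muscle form of Cox6a, was too low to pass the filter in any tissue by itself. It measured 0, 0, 1.05, 0.446 and 0.410 CPM in the p150-negative kidneys, against 3.03, 13.1, 1.64, 1.88, 4.70, 6.86 and 0.439 CPM in the p150-positive ones. In cerebellum it ran from 1.31 to 12.8 CPM (median 3.86) in p150-negative and from 0.213 to 4.99 CPM (median 1.60) in p150-positive animals. All 5 p150-negative kidneys lay below the p150-positive median and 6 of 8 p150-negative cerebella above it, at no more than 32 counts in any kidney library. Its main form Cox6a1 averaged 982 ± 374 CPM in p150-negative and 1256 ± 387 CPM in p150-positive kidneys (-0.51, adjusted p = 0.572).

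The genotype effects were then compared between tissues through the interaction of genotype and tissue. Between kidney and cerebellum 0 of 98 members were called by edgeR, against 0.114% of all genes, and DESeq2 called 1, Cox6a2 (-4.70, adjusted p = 0.0134, against -4.70 ± 1.15 and 0.0907 by edgeR). Cox6a2 passed the filter in neither tissue alone and had at most 3 counts in a p150-negative kidney. It entered this comparison through the other groups, so its value is tied to that filter. At an unadjusted p under 0.05 there were 19 members, all with a lower fold change in kidney, against 1129 of 14940 genes. The effect in kidney minus that in cerebellum had a median of -0.41 over the 74 structural nuclear subunits, 73 of them below 0, against -0.055 over all genes. For the 8 mitochondrially encoded members it was 0.03, with 4 below 0. Without kidney animal 3, 0 of 98 were called against 0.177% of all genes, 31 had an unadjusted p under 0.05, all lower, the structural median was -0.503, and the mitochondrially encoded median was 0.115, with 1 below 0. Uqcrfs1 had a difference of -0.41 ± 0.19 (adjusted p = 0.620) and Ndufa9 of -0.38 ± 0.21 (adjusted p = 0.752).

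Between liver and cerebellum 0 of 95 members were called by edgeR and by DESeq2, against 2.67% of all genes by edgeR, with 4 at an unadjusted p under 0.05. The median over the structural nuclear subunits was -0.33, with 64 of 74 below 0. Between liver and kidney 0 of 96 were called by edgeR and by DESeq2, against 1.5% of all genes by edgeR, with 0 at an unadjusted p under 0.05, and the median over those subunits was 0.052, with 26 of 74 below 0. The differences share the libraries of a tissue, so the 3 comparisons are not independent. Within a tissue each library came from another animal, so the p-values of a single tissue measure the spread between animals. Between tissues the same animals gave libraries of both, which the main interaction fits do not model.

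Genes that work with the respiratory chain were described from lists, each by its count among the genes tested. In liver 4.76% of all genes tested were called lower, 6.94% higher and 11.7% either way, so 1 or 2 calls in a list describe those genes and not the list. Of the 17 genes of the tricarboxylic acid cycle and pyruvate dehydrogenase, 2 fell in liver, against 4.76% of all genes: Dlat, the E2 component of pyruvate dehydrogenase, with 29.5 ± 9.35 CPM in p150-negative and 53.5 ± 17.9 CPM in p150-positive animals (-0.79, adjusted p = 0.0326), and Cs, citrate synthase, with 86.4 ± 26.7 and 141 ± 41.2 CPM (-0.68, adjusted p = 0.0349). Over the whole list 11 of 17 lay above 0 in liver (median 0.061). In kidney all 17 lay below 0 (median -0.41, and -0.245 without animal 3), 0 were called and 6 had an unadjusted p under 0.05. The lowest p there were those of Sucla2 (437 ± 40.2 CPM in p150-negative and 567 ± 34.6 CPM in p150-positive animals, -0.49, adjusted p = 0.134) and Idh3b (483 ± 44.4 and 636 ± 59.9 CPM, -0.51, adjusted p = 0.153), both without overlap of the groups. In cerebellum 16 of 17 lay below 0 (median -0.20), 0 were called and 3 had an unadjusted p under 0.05.

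Of 45 further assembly factors, 41 were tested in liver and 1 fell there, against 4.76% of all genes: Higd1a, a hypoxia-induced factor of complex IV, with 69.7 ± 12.1 CPM in p150-negative and 120.3 ± 59.6 CPM in p150-positive animals (-0.79, adjusted p = 0.0436, 31 of 41 below 0). In kidney 0 of 42 were called (37 below 0, median -0.27, 4 at an unadjusted p under 0.05), and in cerebellum 0 of 42 (26 below 0, median -0.11, 5 at an unadjusted p under 0.05). Among mitochondrial ribosomal proteins, which translate the mitochondrially encoded subunits, 2 of 78 fell in liver, against 4.76% of all genes, namely Mrpl9 (-0.60, adjusted p = 0.0255) and Mrpl49 (-0.67, adjusted p = 0.0264), and 0 of 78 were called in kidney (72 below 0, median -0.35, 15 at an unadjusted p under 0.05) or cerebellum (42 below 0, median -0.031, 4 at an unadjusted p under 0.05). Of 17 other electron carrier genes 1 fell in liver, against 4.76% of all genes, namely Coq10a, a ubiquinone-binding protein (16.8 ± 4.51 CPM in p150-negative and 26.8 ± 3.81 CPM in p150-positive animals, -0.63, adjusted p = 0.0372). In kidney 0 of 17 were called (15 below 0, median -0.44) and in cerebellum 0 of 17 (10 below 0, median -0.135), with 2 and 3 at an unadjusted p under 0.05. In cerebellum Cyc1, cytochrome c1 of complex III, averaged 425 ± 55.1 CPM in p150-negative and 514 ± 29.2 CPM in p150-positive animals (-0.31, adjusted p = 0.246). Genes of mitochondrial DNA expression and maintenance had 0 called of 25 in liver, 26 in kidney and 27 in cerebellum, where 2, 0 and 1 had an unadjusted p under 0.05. In kidney 20 of these 26 lay below 0 (median -0.23, and -0.23 without animal 3).

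Among these lists of mitochondrial genes, the largest called change was a rise in liver of Slc25a4, the ADP/ATP carrier that exchanges the ATP made by complex V. It ran from 154 to 310.3 CPM (median 218) in p150-negative and from 61.4 to 86.5 CPM (median 76.0) in p150-positive livers, without overlap (1.73 ± 0.19, adjusted p = 4.98e-06). It was the 1 gene called of 21 import, carrier and chaperone genes in liver, where 6.94% of all genes were called higher, and 0 of 21 were called in kidney (4 at an unadjusted p under 0.05) or cerebellum (3). In kidney 19 of the 21 lay below 0 (median -0.30, and -0.22 without animal 3). Of 13 nuclear regulators tested in liver 1 rose, against 6.94% of all genes, namely Ppargc1a, the coactivator of mitochondrial biogenesis, with 57.2 ± 17.8 CPM in p150-negative and 31.4 ± 8.27 CPM in p150-positive animals (0.92, adjusted p = 0.0273), while 0 of 14 were called in kidney or cerebellum, with 0 at an unadjusted p under 0.05 in both. In kidney 12 of the 14 regulators lay below 0 (median -0.29), and 8 of 14 without animal 3 (median -0.14). Mitochondrial rRNA and tRNA genes, read from the same long RNAs as the mitochondrially encoded subunits, had 0 called of 3 tested in liver, 4 in kidney and 7 in cerebellum, with 0 at an unadjusted p under 0.05; in cerebellum all 7 lay above 0 (median 0.69). Without kidney animal 3, still 0 genes of these lists were called in kidney, while the numbers at an unadjusted p under 0.05 were 32 mitochondrial ribosomal proteins, 10 assembly factors, 5 electron carriers, 1 regulator and 2 rRNA and tRNA genes, and the median of the rRNA and tRNA genes was -0.53 in place of 0.17.

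Markers of other cells moved with the genotype in the same tissues. Of all genes tested, 6.94% were called higher and 4.76% lower in liver, 0.385% and 0.309% in kidney, and 0.723% and 0.274% in cerebellum. In liver all 9 neutrophil markers tested and 11 of 12 macrophage markers rose, with neutrophil markers summing to 457 to 1682 CPM in p150-negative and 27.9 to 177 CPM in p150-positive animals, and macrophage markers to 1344 to 2871 CPM in p150-negative and 454 to 1009 CPM in p150-positive animals. Macrophage markers had 0 of 9 called in kidney (3 at an unadjusted p under 0.05) and 2 of 8 called higher in cerebellum, and neutrophil markers 0 of 7 in cerebellum (3 at an unadjusted p under 0.05). None of the 7 red cell genes was called in liver (1 at an unadjusted p under 0.05). In kidney the neutrophil markers summed to 126 to 249.6 CPM in p150-negative and 9.86 to 85.5 CPM in p150-positive animals, with 1 of 4 called higher. Red cell genes summed to 958 to 3238 CPM in p150-negative and 3754 to 10329 CPM in p150-positive kidneys, with Hbb-bs and Hba-a1 called lower of 7 tested, and to 679 to 2320.0 and 2307 to 4714 CPM in p150-negative and p150-positive cerebella, with 3 of 7 called lower. Of the tissues' own markers, Serpina1c was called lower in liver (-1.26, adjusted p = 0.0431) and 0 of 4 were called in kidney (1 at an unadjusted p under 0.05), where the proximal tubule phosphate carrier Slc34a1 averaged 2151 ± 396 CPM in p150-negative and 3399 ± 700.0 CPM in p150-positive animals (-0.77, adjusted p = 0.0808). In cerebellum 0 of 4 were called, with 0 at an unadjusted p under 0.05. Of the brown adipocyte markers 0 of 5 tested were called in kidney (3 at an unadjusted p under 0.05) and 1 of 3 in cerebellum, Dio2 (-1.19, adjusted p = 0.0158). Dio2 by itself is not read as a sign of brown fat in cerebellum. Muscle markers had 1 gene tested in kidney and 1 in cerebellum, not called, and spermatogenic markers passed the filter in no tissue. Without kidney animal 3, 5 of 7 neutrophil markers and 1 of 9 macrophage markers were called higher in kidney, against 1.72% of all genes called either way. Without cerebellum animal 2, 3 of 8 macrophage markers were called higher and 2 of 7 red cell genes lower in cerebellum, against 1.06% either way. The part of these cells in the subunit values was not tested.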

How the data were processed

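Per the labels' protocols, tissue in TRIzol was purified on columns including a DNase step, and libraries were built by Nextera XT, which does not mark strand. The authors deposited raw read counts per gene. STAR 2.4.2a, HTSeq 0.4.1, SAMtools 1.2, Picard 1.134, FastQC 0.11.3 and the build GRCm38 are named in the submitters' processing notes, without parameters. Of 53471 entries, 6 repeated an identifier with identical counts and were used once, and 3433 genes without a symbol held 0.267% of counts.

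Counts were tested per tissue with edgeR 4.0.16 (R 4.3.3): TMM scaling, filterByExpr (min.count 10, min.total.count 15), the quasi-likelihood test and Benjamini-Hochberg adjustment over all genes, called at 0.05. CPM are counts over library totals. Interactions were fitted over both tissues, and the effect in the first tissue minus that in the second is given. The fits were also run on simulated counts with planted changes larger than most member differences here, and the outcome is not given. That run does not show whether differences as small as those of the members could be called. DESeq2 1.42.0, other scalings, filters, covariates and left-out libraries were alternatives. Animal numbers in the labels' titles pair tissues of the same animal; correlations of their deviations ran from -0.002 to 0.185 (liver and kidney), -0.01 to 0.177 (liver and cerebellum) and -0.126 to 0.152 (kidney and cerebellum).

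Named were called members, or else the 3 with the smallest p in a tissue, all mitochondrially encoded genes, 9 core subunits, isoform sets and up to 4 genes per other list; others are marked. The values of 1 core subunit are not reported here. The members and lists were chosen with earlier results of these data known. Pseudogene copies were matches of at least 100 bases at 98% identity.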

Additional observations from a re-analysis of the deposited data

Results flagged for a closer look

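In 21 of 94 groups of 4 to 10 libraries tested, 1 library stood far from the others by Dixon's test, where chance flags about 1 in 20. The groups share libraries, so the flags are not independent, and no explanation was tested.

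In liver, p150-positive animal 13 stood high in the summed mitochondrially encoded members (38379.8 CPM, next 21016.2), mt-Cytb (9687 CPM, next 4999), mt-Nd2 (5578 CPM, next 1988) and mt-Nd6 (1559 CPM, next 338). Uqcrfs1 was low in p150-negative animal 8 (331 CPM) and high in p150-positive animal 15 (667 CPM). Ndufa9 was high in p150-negative animal 14 (309.6 CPM) and mt-Co1 in p150-negative animal 11 (7390.2 CPM). Cox6a2 was at 1.88 CPM in p150-negative animal 16 and 0.609 CPM in p150-positive animal 6, which was the single p150-positive liver above 0.

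In kidney, p150-negative animal 3 stood low for mt-Co1 (2492 CPM, next 8055) and high for mt-Nd6 (1010.4 CPM, next 429.8) and Cox5a (282 CPM, next 142). In kidney p150-positive animal 5 the nuclear sum was 73229 CPM (next 54364), Cox5a 424 CPM (next 221), Ndufb10 627 CPM (next 428) and Cox8b 217 CPM (next 56.4).

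In cerebellum, mt-Cytb was high in p150-negative animal 11 (7141 CPM, next 5017). Cox8b was at 1.89 CPM in p150-negative animal 16, and Cox6a2 at 12.8 CPM in p150-negative animal 8 and 4.99 CPM in p150-positive animal 5.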

How the results depend on the processing

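No member was called in any tissue under any alternative scaling, filter, covariate or set of libraries, except in kidney, where DESeq2 called 2 lower (Uqcrfs1 and Ndufa9) and leaving out p150-negative animal 9 gave 1 (Uqcrfs1). Leaving out each library in turn gave 0 to 1 members called lower in kidney. DESeq2 called 1 member between kidney and cerebellum (Cox6a2, at few counts), against 0 by edgeR. The shares of all genes called by DESeq2 and without p150-negative kidney animal 9 are not given here. With animal as a replicate block, 0 members were called in each of the 3 tissue comparisons, as in the main fits. The block fit keeps only animals with both tissues, so its libraries differ, and equal counts of 0 say little about the pairing. Leave-one-out medians of nuclear members ran from -0.441 to -0.06 in liver (lowest without p150-negative animal 16), -0.518 to -0.241 in kidney and -0.071 to 0.056 in cerebellum, and of mitochondrially encoded members from -0.244 to 0.279, -0.375 to -0.193 and -0.383 to -0.241 in those tissues. With the prefix of the animal identifiers as a block, the liver medians were -0.183 (nuclear) and 0.119 (mitochondrially encoded), and with Xist as a covariate -0.257 and 0.045. With all labelled libraries the kidney nuclear median was -0.485. Of 2333 values of named members, 104 changed sign, 63 of them in cerebellum, and the causes were not tested. Low depth limits the isoforms at a few counts per library.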
